A study of Mus musculus with 60 samples.

Results

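The EGF receptor gene Egfr, its family members Erbb2 and Erbb3, and the genes of 6 EGF receptor ligands (Tgfa, Hbegf, Areg, Ereg, Btc and Epgn) were followed across 60 chemically induced skin carcinomas. The members were every probe set (a group of short probes that reports 1 transcript) that carried the symbol of a listed gene, which gave 20 of the 45101 probe sets on the array and 9 of the 18195 named genes. The carcinomas came from 55 FVBBX mice. These were bred by crossing SPRET/Ei (Mus spretus) with FVB/N and mating the hybrids back to FVB/N, so no animal has the same genotype as another. All mice had been treated on the back skin with dimethyl benzanthracene (DMBA), a carcinogen, and tetradecanoyl-phorbol acetate (TPA), a tumor promoter, so every group below shares both agents and there was no untreated group. Spindle carcinoma was recorded for 14 tumors from 13 mice, squamous cell carcinoma (SCC) for 38 tumors from 35 mice, and no histology for 8 tumors from 7 mice. Of the mice with SCC, 13 had well, 13 moderately and 9 poorly differentiated tumors. Tumors of 14 mice were labeled as p53 mutant and those of the other 41 were not. Lymph nodes were positive in 15 mice, negative in 19 and without a record in 21. The mice were of both sexes and carried origin labels from F1BSF1 to F1BSF4. Their ages were not given. Papilloma counts at 20 weeks split the animals into 17 resistant mice (fewer than 2 papillomas), 16 sensitive mice (more than 7) and 22 between.

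The EGF receptor is a tyrosine kinase on the surface of keratinocytes, and its ligands are made as membrane-bound precursors that proteases of the ADAM family cut free. Ligand binding pairs the receptor with itself or with ERBB2, which has no known ligand of its own, or ERBB3, whose kinase is weak but which recruits PI3 kinase and binds neuregulins. The receptor then signals through RAS, the MAP kinase cascade and PI3 kinase. In skin this pathway drives growth of basal keratinocytes, wound closure and hair follicle cycling, and in DMBA/TPA tumors it acts beside Hras, the oncogene that DMBA usually mutates. TGF-alpha, amphiregulin (Areg) and epigen (Epgn) bind the EGF receptor, whereas HB-EGF (Hbegf), epiregulin (Ereg) and betacellulin (Btc) also bind ERBB4.

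Epgn, Ereg, Areg and Btc neighbor each other in that order on chromosome 5, with no other protein-coding gene among them in the RefSeq gene table. Promoter sequence from RefSeq was at hand for 6 of the 9 members (GRCm38.p6, the 250 bases before an annotated transcript start). The promoters of Epgn, a ligand gene that fell in spindle carcinomas, and of its neighbors Areg and Btc, which did not pass the test there, are shown so that they can be set side by side. The window of Tgfa is not shown, because it precedes a start inside the gene and 184 of its bases lie within the annotated gene. They lie at chr5:91027267-91027516 (+ strand), chr5:91139349-91139598 (+ strand) and chr5:91402995-91403244 (- strand). Capitals mark 4 motifs that were searched on both strands and did not overlap here. These were the AP-1 site TGANTCA, the cyclic AMP response element TGACGTCA, the TATA box TATAAA and the E-box CAGGTG, a sequence to which SNAI and ZEB factors are known to bind.

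Epgn: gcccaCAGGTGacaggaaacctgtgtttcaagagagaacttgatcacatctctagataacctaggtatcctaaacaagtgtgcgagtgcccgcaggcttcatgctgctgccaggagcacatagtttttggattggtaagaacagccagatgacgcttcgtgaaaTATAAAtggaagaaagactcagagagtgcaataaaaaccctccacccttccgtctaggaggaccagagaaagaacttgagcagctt
Areg: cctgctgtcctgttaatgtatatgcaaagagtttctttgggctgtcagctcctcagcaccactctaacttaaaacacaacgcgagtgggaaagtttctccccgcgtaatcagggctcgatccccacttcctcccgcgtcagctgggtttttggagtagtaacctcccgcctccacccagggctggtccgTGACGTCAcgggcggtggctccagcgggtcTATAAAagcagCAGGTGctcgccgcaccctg
Btc: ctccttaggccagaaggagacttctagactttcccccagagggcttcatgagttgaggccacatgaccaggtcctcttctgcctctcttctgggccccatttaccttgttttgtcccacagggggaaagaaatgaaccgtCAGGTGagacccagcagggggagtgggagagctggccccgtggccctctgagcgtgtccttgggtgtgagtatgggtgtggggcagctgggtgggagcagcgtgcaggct

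The E-box occurred in all 3 of these promoters and in the window of Tgfa, and in neither that of Egfr nor that of Erbb2. It was present in 17.2% of the 32851 mouse promoters of the same length. The Areg promoter also held the cyclic AMP response element, 61 to 54 bases before the start, and a TATA box 31 to 26 bases before it. These motifs occurred in 1.55% and 12.4% of promoters. Epgn held a TATA box farther out, 86 to 81 bases before the start. No AP-1 site lay in any of the 6 windows, against 6.75% of promoters that held it. These are matches of letters, not measured binding.

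Values are log2 expression after RMA, so a difference of 1 is a doubling on the linear scale. All 9 members passed a filter that asked for a value above the array's median on at least 8 arrays, as did 17 of the 20 probe sets. Where a gene had several probe sets, the one of highest mean was used. Groups were compared over mice with limma, and p-values were adjusted by the Benjamini-Hochberg method over 12792 genes, with 0.05 as the threshold. The labels name no hybridization batch, and the number of arrays limits the precision. Of the arrays, 3 had sex markers opposite to the label (SCC 5, SCC 24 and SCC 25), 6 showed markers of both sexes and 3 showed neither. The 2 most alike pairs of arrays from different mice were no histology 3 with SCC 18 (r = 0.991) and SCC 22 with SCC 21 (r = 0.988). They are called near-identical below, but no cutoff was set and the next pair had r = 0.985. Keratinocyte markers, which define the labeled tissue, were low on a few SCC arrays, with a mean over 11 genes of 4.70 on SCC 24, 7.67 on SCC 21 and 7.96 on SCC 22, against a median of 11.1 over the SCC mice.

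Spindle carcinomas, in which tumor cells have lost their epithelial shape, were set against SCC to ask how the receptor family differs between the histologies. Tgfa, Erbb3, Epgn, Hbegf and Erbb2 fell in spindle carcinomas, and none of the 9 members rose. Thus 5 of 9 members were called, where 26.5% of all genes were (1985 rose and 1405 fell of 12792). The median difference was -0.82 over the members and 0.02 over all genes tested. The largest difference among the members was that of the ligand gene Tgfa, and Egfr itself did not pass the threshold.

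**Figure D1:**
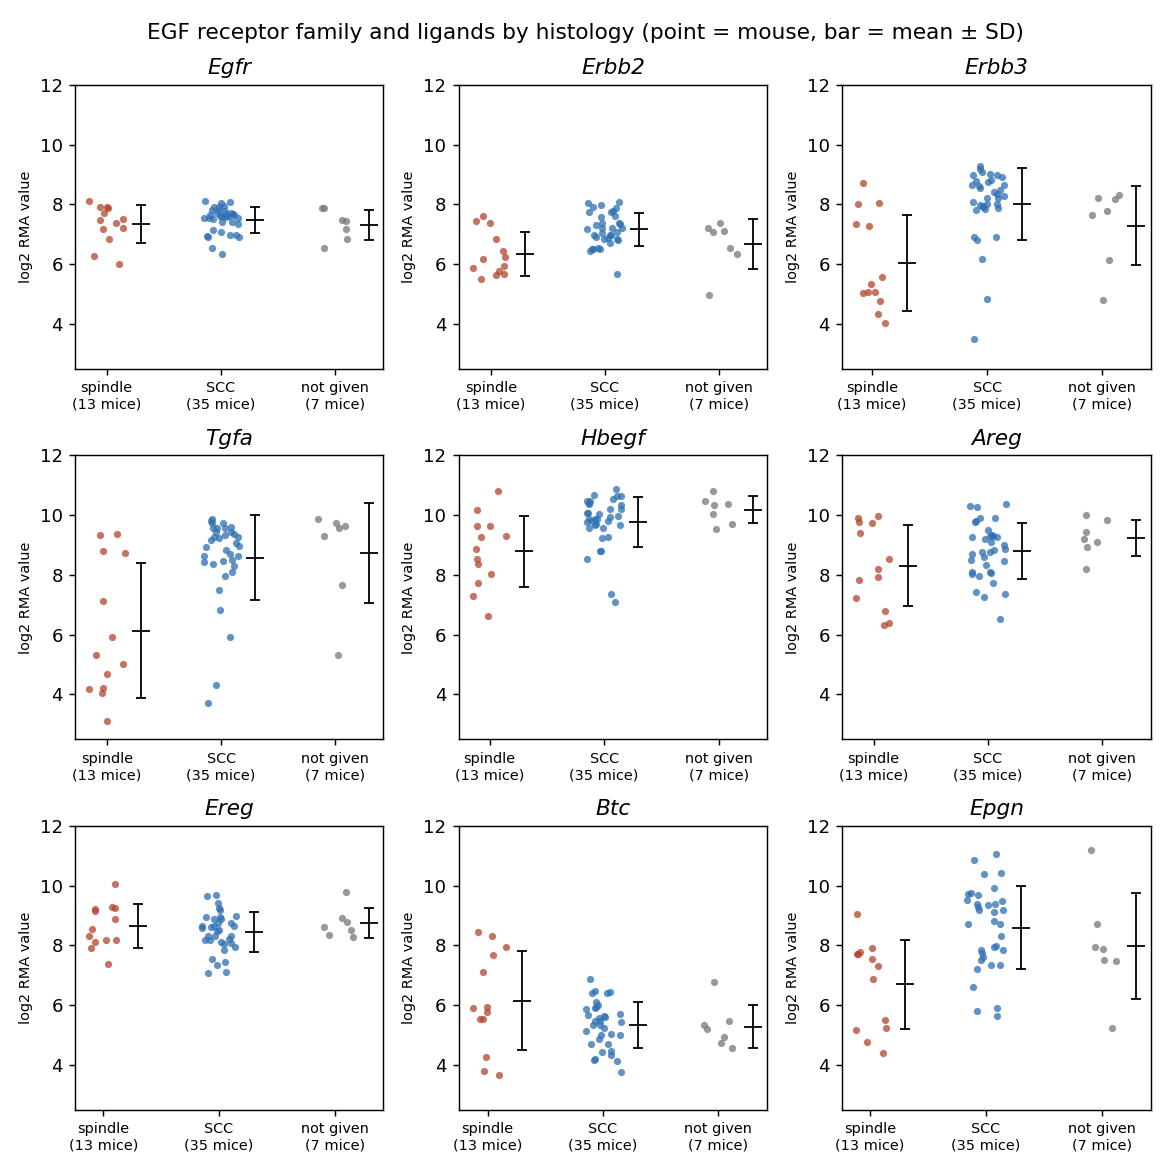
Log2 RMA values of the 9 members, 1 panel per gene, for spindle carcinomas, SCC and tumors with no histology given. Each point is a mouse and the bar is the mean ± SD. The ranges of spindle and SCC mice overlap for every member, and Btc alone has 5 spindle mice above the highest SCC mouse.

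Among the receptors, Egfr averaged 7.34 ± 0.64 in spindle carcinomas and 7.49 ± 0.43 in SCC (SD, n = 13 and 35 mice), a difference of -0.15 (95% interval -0.47 to 0.17, adjusted p = 0.524). Its values ran from 5.99 to 8.11 (median 7.47) in spindle mice and from 6.35 to 8.12 (median 7.60) in SCC mice. The groups overlapped almost completely. The 6 tested Egfr probe sets differed by -0.15 to 0.05 and none passed the threshold. They tracked each other poorly, however, since the other 5 correlated with the one used at r = 0.04 to 0.46 over the SCC mice, so the level of Egfr depends on the probe set read.

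Erbb2 ran from 5.50 to 7.63 (median 6.16) in spindle mice and from 5.68 to 8.07 (median 7.19) in SCC mice. It was 1.76-fold lower in spindle carcinomas (log2 difference -0.82, SE 0.19, adjusted p = 0.00164), and 10 of 13 spindle mice lay below the SCC median. Erbb3 ran from 4.02 to 8.71 (median 5.33) in spindle mice and from 3.50 to 9.28 (median 8.27) in SCC mice. It was 3.94-fold lower (difference -1.98, SE 0.42, adjusted p = 0.000675), with 12 of 13 spindle mice below the SCC median but only 2 of 35 SCC mice below the spindle median. The lowest value of all belonged to an SCC, SCC 24.

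Among the ligands, Tgfa, which keratinocytes make for themselves, had the widest spread. It ran from 3.10 to 9.36 (median 5.31) in spindle mice and from 3.71 to 9.89 (median 8.96) in SCC mice. The means were 6.14 ± 2.25 and 8.58 ± 1.42 (SD), a 5.42-fold lower level in spindle carcinomas (difference -2.44, SE 0.53, adjusted p = 0.000817). The 2 other Tgfa probe sets fell as well, by 0.35 and 0.70 (adjusted p = 0.0462 and 0.0064), a much smaller change than on the probe set used. A total of 7 arrays, 5 spindle and 2 SCC, were at or below their array's median for Tgfa, where values respond little to level. When the probe sets of each gene were averaged, the differences of Tgfa and Erbb3 were smaller, -1.16 and -1.09, and both still passed (adjusted p = 0.000736 and 0.000709).

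Epgn, whose product is a ligand of low affinity, ran from 4.42 to 9.06 (median 7.30) in spindle mice and from 5.62 to 11.1 (median 8.82) in SCC mice. It was 3.72-fold lower (difference -1.89, SE 0.45, adjusted p = 0.00166), and 5 of 13 spindle mice lay below the lowest SCC mouse. Hbegf, a ligand that wounding induces, ran from 6.63 to 10.8 (median 8.88) in spindle mice and from 7.10 to 10.9 (median 9.89) in SCC mice. It was 1.98-fold lower (difference -0.99, SE 0.30, adjusted p = 0.0115), and its second probe set fell by the same amount, 1.00 (adjusted p = 0.00673).

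Areg and Ereg, which lie beside Epgn on chromosome 5, did not pass the threshold. Areg averaged 8.31 ± 1.36 in spindle carcinomas and 8.80 ± 0.93 in SCC, a difference of -0.49 (95% interval -1.17 to 0.18, adjusted p = 0.288). Ereg averaged 8.65 ± 0.73 in spindle carcinomas and 8.45 ± 0.66 in SCC, a difference of 0.20 (95% interval -0.23 to 0.64, adjusted p = 0.521). Both intervals include 0.

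Btc encodes betacellulin, a ligand of both the EGF receptor and ERBB4. It averaged 6.15 ± 1.65 in spindle carcinomas and 5.34 ± 0.77 in SCC (difference 0.81, SE 0.34, adjusted p = 0.07), so the difference missed the threshold. Spindle mice ran from 3.68 to 8.45 (median 5.91) and SCC mice from 3.75 to 6.86 (median 5.44). The 5 spindle mice above the highest SCC mouse were those of spindle 3 (8.32), spindle 4 (8.45), spindle 7 (7.68), spindle 10 (7.94) and the pair spindle 8 and spindle 9 (7.87 and 6.37). Other spindle carcinomas were near the bottom of the range, with 3.68 in spindle 13, 3.80 in spindle 11 and 4.27 in spindle 14. A total of 11 arrays were at or below their array's median for Btc. The call was gained with every tumor kept and the mouse as a random effect (0.87, adjusted p = 0.0467) and without the 9 arrays whose sex markers were opposite or mixed (0.99, adjusted p = 0.0346). Over all 12 alternatives its adjusted p ran from 0.0346 to 0.093.

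**Figure D2:**
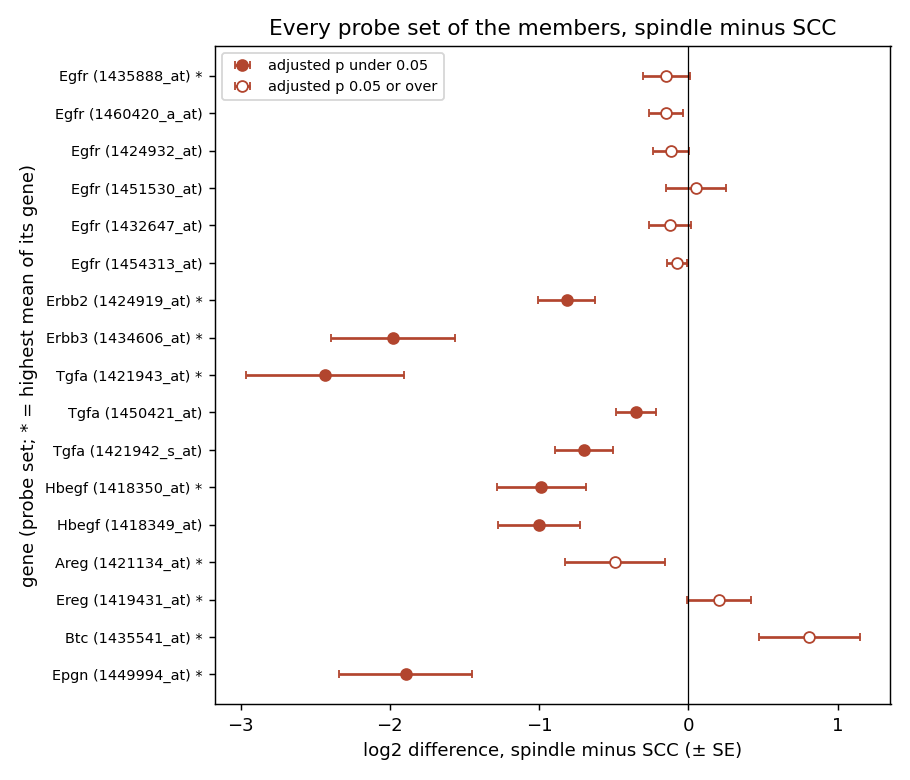
Log2 difference, spindle minus SCC, for the 17 member probe sets that passed the filter, with SE bars. Filled points passed an adjusted p of 0.05, and an asterisk marks the probe set of highest mean of its gene. All 3 Tgfa and both Hbegf probe sets fell, and the 6 Egfr probe sets lie near 0.

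Not every spindle carcinoma was low. The arrays spindle 1, spindle 5 and spindle 6 had Erbb3 values of 8.71, 8.06 and 8.02 and Tgfa values of 9.35, 8.73 and 9.36, within the bulk of SCC. At the other end, spindle 13 and spindle 14 had Erbb3 values of 4.02 and 4.75 and Tgfa values of 4.17 and 3.10. Keratinocyte markers varied in the same way, with a mean over 11 genes of 6.66 on spindle 13 and 5.73 on spindle 14. Hence the group labeled spindle was mixed in these transcripts, and the SD of Tgfa was 1.58 times as large in spindle mice as in SCC mice. The tumors also carry a tumor class label of 1 or 2, whose basis is not given in the sources used here. Erbb3 was at most 5.58 (spindle 4) on spindle arrays of class 1 and at least 7.36 (spindle 2) on those of class 2. SCC arrays also differed by this label. Their Tgfa was at most 6.23 (SCC 4) in class 1 and at least 7.48 (SCC 20) in class 2. Their Erbb3 values overlapped, with 7.16 on SCC 4 of class 1 and 6.91 on SCC 36 of class 2. The members were not tested by this label.

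Markers of other cell types moved with these differences. All 11 keratinocyte markers fell in spindle carcinomas (median difference -2.16), among them Trp63 (-2.71), Col17a1 (-2.49) and Krt5 (-2.45). Their mean per mouse ran from 5.73 to 11.3 in spindle carcinomas and from 4.70 to 11.6 in SCC. Of the 8 suprabasal markers, 3 fell, namely Ivl, Sbsn and Krtdap (-2.66, -2.29 and -2.25). Of 11 fibroblast and mesenchymal markers, 3 rose (Pdgfra 1.69, Vim 1.23 and Dcn 1.17) and 1 fell, and their mean per mouse ran from 9.63 to 11.7 in spindle carcinomas and from 9.07 to 11.8 in SCC. Among leukocyte markers, 2 of 8 macrophage genes rose (C1qc 0.83 and C1qa 0.75), 4 of 7 neutrophil genes fell (such as S100a9, -0.86), and 1 of 5 T cell genes fell (Cd8a, -0.25). No endothelial or striated muscle gene of 7 and 8 changed, 2 of 3 adipocyte genes fell (Fabp4, -1.57, and Lipe, -0.85), and 1 of 4 sebaceous genes fell (Fasn, -0.48). In whole tumors fewer epithelial cells and less RNA per epithelial cell cannot be told apart, and the part of cell makeup in the fall of the 5 members was not tested. The Gapdh 3′ minus 5′ difference, a sign of RNA quality, averaged 0.11 in spindle mice and 0.17 in SCC mice.

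Genes that act around the receptor were read from lists of known pathway members. Of 86 such genes tested, 22 rose and 17 fell in spindle carcinomas, which is 45.3% called, where 26.5% of all genes were. Lrig1, a transmembrane protein that promotes receptor degradation, rose to 8.59 ± 1.04 in spindle carcinomas, against 7.02 ± 0.79 in SCC (difference 1.57, adjusted p = 0.0002). Its relative Lrig3 rose by 0.96, whereas Cblc, an epithelial ubiquitin ligase, fell by 1.14. In all, 4 of 19 genes listed for receptor inhibition, sorting or degradation rose and 3 fell, with a median of 0.14.

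Of 12 sheddases and trafficking genes, which release or carry the ligands, 5 rose and 3 fell. Timp3, an inhibitor of the ligand-releasing protease ADAM17, rose by 1.38 and Adam19 by 0.61, while Adam8 fell by 0.74. Adam17 itself, the main sheddase for TGF-alpha and amphiregulin, fell slightly (-0.29, adjusted p = 0.00636). Only 2 of the 6 other ErbB receptors and ligands passed the filter. Of these Nrg1, a neuregulin that binds ERBB3, fell by 0.82 (adjusted p = 0.0108).

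Inside the cell, the changes ran both ways. Among 15 adaptors and RAS regulators, 5 rose and 1 fell, and the gene that fell was Grb7, an adaptor whose gene lies beside Erbb2 (-1.31, adjusted p = 0.001). Gab2, an adaptor that recruits PI3 kinase, rose by 0.72, and Nf1, which turns RAS off, rose by 0.45. In the MAP kinase cascade 3 of 6 genes fell, none by more than 0.37 (Map2k1), with Ksr1 and Map2k2 at -0.21 and -0.19. In the PI3 kinase branch 4 of 7 rose, such as Pik3r1 (0.51) and Pik3ca (0.42), and Pik3cb fell by 0.48. Of 25 transcripts that EGF receptor and ERK output induces in many cells, 4 rose and 5 fell, with a median of 0.05. Vegfa (-0.84), Epha2 (-0.74) and Phlda1 (-0.72) fell by the largest amounts of this list, and the mean of the list per mouse ran from 8.20 to 8.96 in spindle carcinomas and from 8.26 to 9.12 in SCC.

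**Figure D3:**
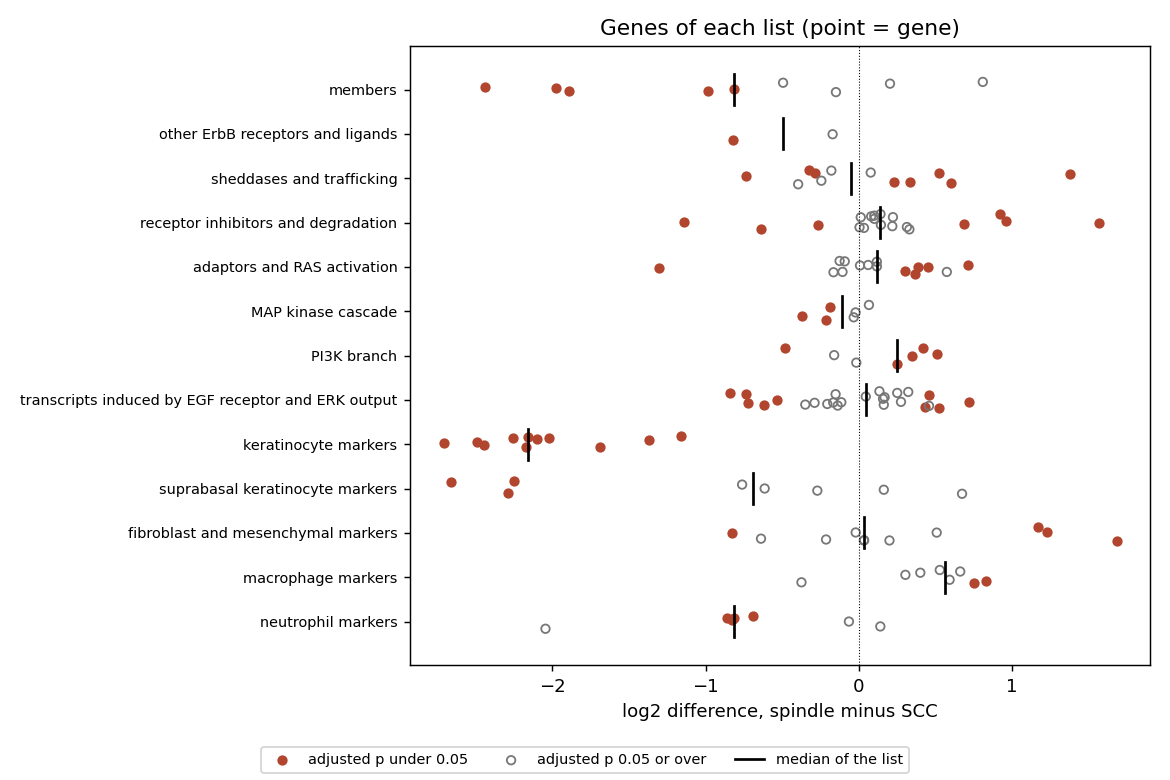
Log2 difference, spindle minus SCC, of each gene in the members and in lists of pathway genes and cell markers. Each point is a gene, filled where the adjusted p was under 0.05, and the bar is the median of the list. Keratinocyte markers all lie left of 0 (median -2.16), whereas the 25 transcripts of EGF receptor and ERK output lie on both sides (median 0.05).

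The members were also compared between spindle carcinomas and poorly differentiated SCC alone. No gene passed the threshold in this smaller comparison (0% of 12792, with 2293 at an unadjusted p under 0.05). The sizes for Tgfa and Epgn were nevertheless like those above. Tgfa ran from 3.10 to 9.36 in spindle mice and from 4.32 to 9.37 in poor SCC mice, a difference of -2.46 (95% interval -4.17 to -0.75, unadjusted p = 0.00687, adjusted p = 0.166). Epgn differed by -1.97 (interval -3.24 to -0.69, adjusted p = 0.148), with 12 of 13 spindle mice below the poor SCC median, and Erbb3 by -1.46 (adjusted p = 0.216). All mice of this comparison, spindle and poor SCC alike, are also in the comparison of spindle carcinomas with all SCC, so the results are not independent.

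Grade within SCC was compared to ask whether loss of differentiation moves the receptor family before the spindle stage. None of the 9 members passed in any of the 3 grade comparisons, and neither did any other gene (0% of 12792 in each, with 687 genes at an unadjusted p under 0.05 for poor minus well, 318 for moderate minus well and 1089 for poor minus moderate). Erbb2 averaged 7.24 ± 0.54 in well, 7.31 ± 0.43 in moderate and 6.86 ± 0.64 in poor SCC (n = 13, 13 and 9 mice). Erbb3 averaged 7.96 ± 1.53, 8.45 ± 0.65 and 7.51 ± 1.21 in the same order. Both receptors were thus at their lowest mean in poor SCC, and 8 of 9 poor mice lay below the moderate median for each, but the differences from moderate SCC (-0.45 and -0.94) had adjusted p-values of 0.578 and 0.586.

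The ligands had no order by grade beyond their spread. Tgfa averaged 8.24 ± 1.72 in well, 8.90 ± 0.88 in moderate and 8.60 ± 1.63 in poor SCC, and Hbegf 9.60 ± 1.13, 10.1 ± 0.48 and 9.62 ± 0.71. SCC 24, a well differentiated tumor by its label, carried much of the spread in its grade (Tgfa 3.71, Erbb3 3.50, Areg 6.53 and Epgn 5.62). Without it the poor minus well difference of Tgfa was -0.02, against 0.36 with it, and those of Hbegf, Areg and Epgn also changed sign.

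The p53 label was examined because mutation of Trp53 is a frequent late event in these tumors. Across all histologies 0.281% of genes were called (36 of 12792), and across SCC alone 0.109% (14 of 12792). None of the 9 members was among them. In SCC the nearest were the neighboring ligand genes Epgn and Areg. Epgn ran from 8.33 to 11.1 (median 9.31) in the 8 p53 mutant mice and from 5.62 to 10.4 (median 7.97) in the 27 others. All 8 mutant mice lay above the median of the others (difference 1.37, SE 0.50, unadjusted p = 0.00903, adjusted p = 0.284). Across all histologies the Epgn difference was much smaller (0.32, SE 0.50, unadjusted p = 0.525, adjusted p = 0.871).

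Areg ran from 7.25 to 10.4 (median 9.83) in p53 mutant SCC mice and from 6.53 to 9.92 (median 8.77) in the others, with 6 of 8 mutant mice above that median (difference 0.87, adjusted p = 0.327). For Erbb3 all 8 mutant mice were below the median of the others, yet the means differed by only -0.41 (adjusted p = 0.841), as 3.50 was the lowest value among the others and 6.91 the lowest among the mutants. Of the 8 mutant mice, 5 had poorly differentiated tumors, against 4 of the 27 others. The keratinocyte markers averaged 11.0 in the mutant and 10.7 in the other SCC mice. Over all histologies Areg, and not Epgn as in SCC, was the member of smallest p (difference 0.71, unadjusted p = 0.0231, adjusted p = 0.343).

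Nodal status separated 1 member, Btc, more than the rest, though not past the threshold over all genes. In SCC, Btc ran from 3.75 to 5.62 (median 4.60) in the 10 node positive mice and from 4.45 to 6.86 (median 5.81) in the 14 node negative mice. All 10 positive mice lay below the negative median (difference -1.09, SE 0.26, 95% interval -1.64 to -0.55, unadjusted p = 0.000329, adjusted p = 0.451). Of the SCC arrays, 8 were at or below their array's median for Btc, where values respond little to level. Most of these were of node positive mice, namely SCC 4, SCC 9, SCC 21, SCC 24, SCC 32 and SCC 36. The others were SCC 22 of a node negative mouse and SCC 38 of a mouse without a node record. The other Btc probe set did not pass the filter. No gene was called (0% of 12792, with 1282 at an unadjusted p under 0.05). Over all histologies the Btc difference was -0.88 (unadjusted p = 0.00511, adjusted p = 0.932) among 15 positive and 19 negative mice, and again 0% of genes were called, with 533 at an unadjusted p under 0.05.

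**Figure D4:**
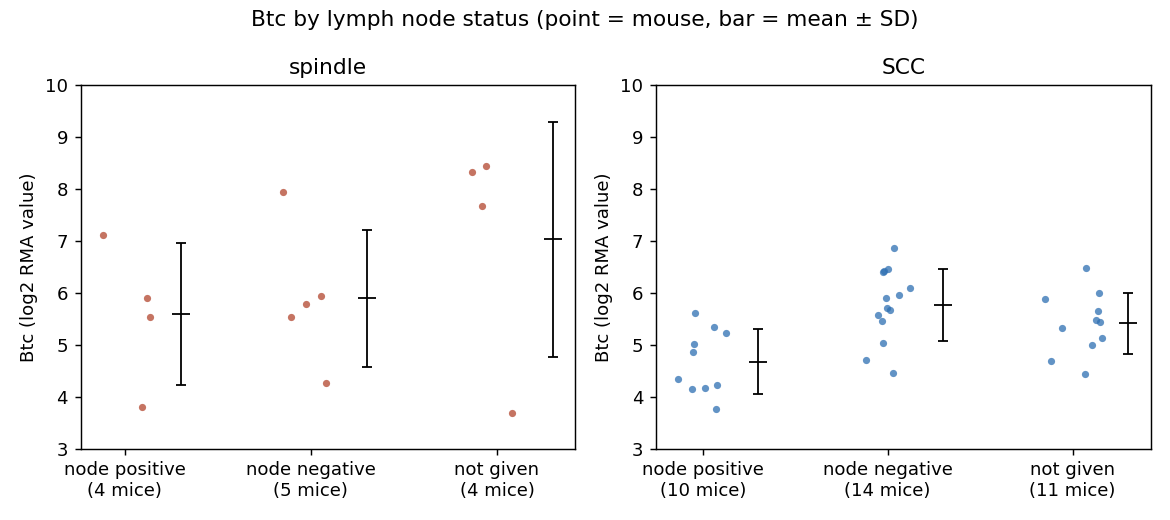
Log2 RMA values of Btc by lymph node status in spindle carcinomas (left) and SCC (right). Each point is a mouse and the bar is the mean ± SD. In SCC the 10 node positive mice reach 5.62, below the median of 5.81 of the 14 node negative mice. In spindle carcinomas the ranges overlap in large part, from 3.80 to 7.12 in 4 node positive and from 4.27 to 7.94 in 5 node negative mice.

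In spindle carcinomas Btc had no such order, with 5.59 ± 1.37 in 4 node positive and 5.89 ± 1.32 in 5 node negative mice, and the difference between the histologies was not tested. Erbb3 and Tgfa were also lower in node positive SCC mice (-1.05 and -1.20, adjusted p = 0.497 and 0.507), but those means rest on a few tumors. The positive group holds SCC 3, SCC 4, SCC 21 and SCC 24, and its keratinocyte markers averaged 9.88 ± 2.20, against 11.0 ± 0.50 in the negative group. Of the 7 endothelial markers, 6 were higher in node positive SCC mice at an unadjusted p under 0.05, such as Cdh5 (0.78) and Kdr (0.65). At the same level 2 of 11 fibroblast and mesenchymal markers were higher, among them Dcn (1.00), and 2 of 7 neutrophil markers were lower, among them Ltf (-2.88). None of these markers passed the adjusted threshold. The part of any of these markers in the Btc difference was not tested.

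Mice that had resisted papillomas were compared with sensitive mice to ask whether susceptibility is reflected in the carcinomas. Egfr was the member of smallest p. It ran from 5.99 to 7.96 (median 7.22) in the 17 resistant mice and from 7.13 to 8.11 (median 7.63) in the 16 sensitive mice, and 13 of 17 resistant mice lay below the sensitive median. The difference was -0.41 (SE 0.14, unadjusted p = 0.00599, adjusted p = 0.509), and 0% of 12792 genes were called, with 1055 at an unadjusted p under 0.05. The other Egfr probe sets did not follow, since they differed by -0.12 to 0.22. Over 13 alternatives that compare these groups the Egfr difference ran from -0.43 to -0.02 (adjusted p = 0.313 to 0.937), with the value nearest 0 given by the mean of its probe sets. The slope of Egfr per doubling of the papilloma count was 0.10 (adjusted p = 0.752), that is, lower with fewer papillomas. Of the ligands Epgn differed most in size (-0.75, adjusted p = 0.699). The classes also differed in other labels. Resistant and sensitive mice numbered 1 and 7 in well, 5 and 2 in moderate and 4 and 2 in poor SCC. More resistant than sensitive mice were labeled p53 mutant. The part of grade or p53 in these differences was not tested.

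The members also varied from tumor to tumor within SCC, and the 36 pairs of members were correlated over the 35 SCC mice. Of these pairs 18 had a Pearson correlation with an adjusted permutation p under 0.05, against 15 without the arrays of doubtful sex markers and 22 with the mean of each gene's probe sets. By Spearman's rho 8 pairs passed, against 4 and 12 under the same alternatives. Egfr was in none of the 18, but with the mean of probe sets it passed in 4 pairs by Pearson's r, with Tgfa (0.47), Erbb3 (0.47), Epgn (0.44) and Erbb2 (0.39), and in 3 pairs by rho, so its place depends on the probe set. Tgfa and Hbegf had the highest r (r = 0.83, rho = 0.82, both with a permutation p of 1e-05, the smallest that 100000 permutations can give, adjusted p = 0.00012 and 0.00018). Leaving out the 2 mice farthest from the median of Tgfa gave r = 0.79. The order of the pairs was not fixed, since Erbb2 and Erbb3 had the higher r without the arrays of doubtful sex markers (0.83, against 0.78 for Tgfa and Hbegf) and Erbb3 and Tgfa with the mean of probe sets (0.77, against 0.73).

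The partner receptors Erbb2 and Erbb3 followed each other as well (r = 0.75, rho = 0.83, permutation p = 1e-05 for each, adjusted p = 0.00012 and 0.00018, and r = 0.68 without the 2 mice farthest in Erbb2). Erbb3 and Tgfa had a high r but not a high rho (0.81, permutation p = 1e-05, adjusted p = 0.00012, and 0.34, permutation p = 0.0455, adjusted p = 0.109). Their r dropped to 0.47 without the 2 mice farthest in Erbb3, so much of that relation rests on those mice. For Erbb3 with Areg and Erbb3 with Epgn, r was 0.44 and 0.38 and was 0.05 and -0.06 without those mice, so these relations did not hold. Nor did that of Tgfa and Btc (r = 0.39, and 0.05 without the 2 mice farthest in Tgfa).

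On chromosome 5, Areg was correlated with Epgn (r = 0.64, rho = 0.61, permutation p = 2e-05 and 0.00016, adjusted p = 0.00018 and 0.00192) and with Ereg (r = 0.57, rho = 0.57, permutation p = 0.00024 and 0.00035, adjusted p = 0.00108 and 0.00315). Without the 2 mice farthest in Areg these were r = 0.60 and 0.58. The farthest neighbor, Btc, did not follow Areg (r = 0.13, permutation p = 0.471, adjusted p = 0.658, and rho = 0.08, permutation p = 0.66, adjusted p = 0.742). Its closest relation was with Erbb2 (r = 0.52, rho = 0.45, permutation p = 0.00143 and 0.00735, adjusted p = 0.00396 and 0.0331, and r = 0.51 without the 2 farthest mice).

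**Figure D5:**
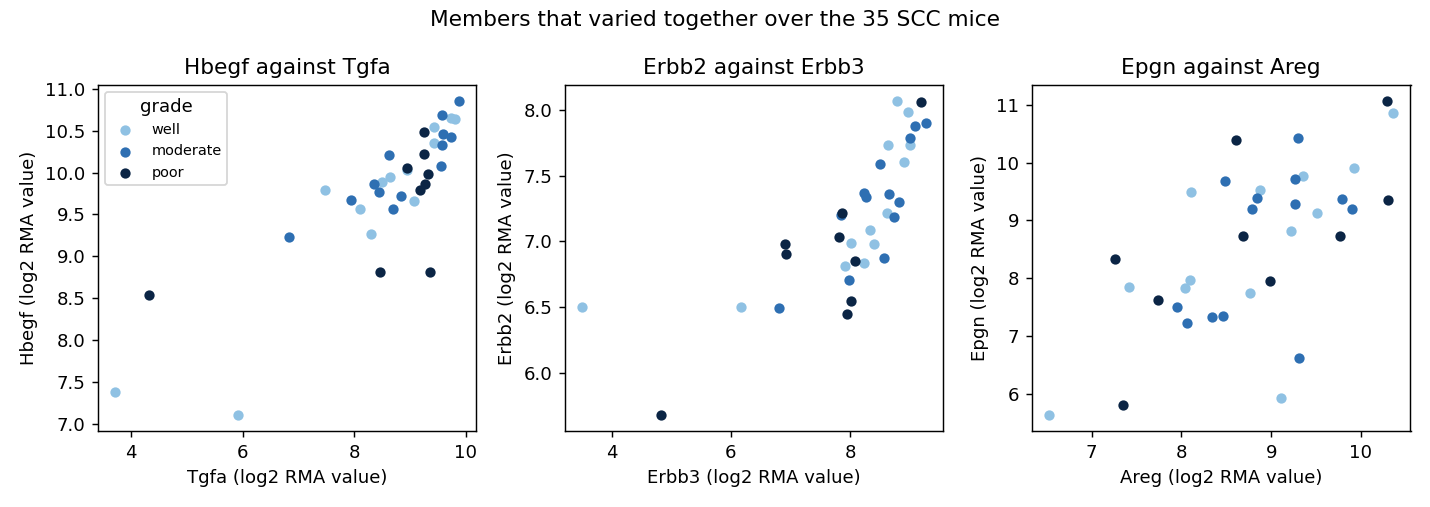
Log2 RMA values of pairs of members over the 35 SCC mice, colored by grade, for Hbegf against Tgfa (r = 0.83), Erbb2 against Erbb3 (r = 0.75) and Epgn against Areg (r = 0.64). Each point is a mouse. A few mice lie at the low end of Tgfa and Erbb3, which is why r was also computed without the 2 farthest mice. Not all low mice were left out by this, since that of SCC 3 and SCC 4 remained (Tgfa 5.91 and Erbb3 6.17).

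For each member the 3 genes most like it by Pearson's r over the 35 SCC mice were also listed, as a description. Erbb3 was followed by Esrp1 (0.96), an epithelial splicing regulator, Map7 (0.94) and Rab25 (0.94), an epithelial trafficking GTPase. Tgfa was followed by Tns4 (0.93), Urah (0.92) and the desmosomal gene Pkp3 (0.91), and Hbegf by Rab38 (0.86), Lad1 (0.86) and the integrin gene Itga3 (0.85). Erbb2 was most like Plekhh1, Slc22a23 and Fhdc1 (0.83, 0.82 and 0.81).

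Areg was most like Itga6 (0.77), an integrin of basal keratinocytes, then Phlda2 and Ppdpf (0.74 and 0.73). Epgn was nearest to Procr, Dll1 and Sbsn (0.80, 0.76 and 0.75). Ereg had Fosl1, an AP-1 subunit, first (0.68), then Abcc1 and Prpf3 (both 0.64), and Btc had Hebp2, Gdpd1 and Marveld3 (0.78, 0.77 and 0.74). Egfr had the weakest matches, with Hsph1 at 0.66 and Sos1 and Ogdh at 0.65. In the 13 spindle mice the genes most like Btc had r values from -0.13 to -0.02, whereas those most like Erbb3 had r values from 0.89 to 0.93.

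Of the mice, 5 gave 2 carcinomas each, which shows how far the members vary within a host. In SCC 7 and SCC 8 the 9 members differed by 0.16 to 0.86. The other pairs were less alike. SCC 22 and SCC 23 differed by up to 4.64, with Tgfa at 4.52 in SCC 22 and 9.16 in SCC 23 and Erbb3 at 5.04 and 8.56. Likewise spindle 8 and spindle 9 had Erbb3 at 4.98 and 9.55 and Tgfa at 3.86 and 8.00, while Hbegf hardly differed (8.80 and 8.96). The keratinocyte marker mean differed within these pairs as well, with 7.96 in SCC 22 and 11.1 in SCC 23, and 5.62 in spindle 8 and 11.4 in spindle 9.

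The pair with no histology, no histology 6 and no histology 7, ran in the same direction for Erbb3 (3.72 and 8.53) and Tgfa (5.83 and 9.48). Ereg was instead lower on the second array (9.80 and 6.74). It was also lower on spindle 9 than on spindle 8 (7.17 and 9.48), and slightly lower on SCC 23 than on SCC 22 (8.64 and 8.85). Their keratinocyte marker means were 8.00 and 11.0. The part of cell makeup in the differences within these 3 pairs was not tested. In each of the 3 pairs the array named first was of tumor class 1 and the other of class 2. In SCC 3 and SCC 4 the median difference over the members was 0.71. SCC 22, spindle 8 and spindle 9 are among the arrays with doubtful markers or a near-identical partner. Without the 9 arrays of opposite or mixed sex markers the 5 members that fell in spindle carcinomas still passed. Those 9 include spindle 8 but neither SCC 22 nor spindle 9. Over the 7 mice without histology, Tgfa ran from 5.32 to 9.89 (median 9.57), Hbegf from 9.53 to 10.8 (median 10.3) and Epgn from 5.22 to 11.2 (median 7.88). The Epgn value of 11.2, on no histology 5, was the highest of all arrays.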

How the data were processed

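Total RNA of each carcinoma had been hybridized to 1 Affymetrix array. The deposited log2 values had been made by the authors with RMA (background correction, quantile normalization and a summary over the probes of a set), and its version and a genome build are not given in the sources used here. Differences are therefore relative to the whole array. Array medians lay between 4.43 and 4.56. Symbols came from the platform annotation (34958 probe sets with 1 symbol, 932 with several), updated through RefSeq (34754 matched), and the Areg probe set was named from the study's supplementary gene table. Tumors of 1 mouse were averaged, and mice were the replicates. Groups were compared with limma 3.58.1 in R 4.3.3 (lmFit, eBayes), because the SAM test of the study's methods was not available, and the code was tested on simulated data. The 3 grades shared 1 model. Correlations used 100000 permutations, adjusted over 36 pairs (Python 3.11.15, numpy 2.4.6). Alternatives were no filter or a stricter one (30 arrays), the mean of probe sets, every probe set, a common 75th percentile, every tumor with the mouse as a random effect, trend and robust eBayes, covariates, and leaving out arrays. Named genes are the 9 members, the 3 genes most like each in SCC and up to 3 genes per list by size of difference past the threshold; Adam17 was added after its value was seen. The members and lists were chosen with earlier results of these data known.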

Additional observations from a re-analysis of the deposited data

Results flagged for a closer look

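Groups of 4 to 10 mice were searched for a mouse far from the others, over 63 combinations of member and group, of which chance flags about 1 in 20. The test picked out 1. Tgfa in the poorly differentiated SCC mice was 4.32 in SCC 21, and the nearest of the other 8 mice was at 8.47. SCC 21 is 1 of the arrays with a near-identical partner, SCC 22, and its keratinocyte marker mean was 7.67.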

How the results depend on the processing

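The 5 members that fell in spindle carcinomas kept their direction and side of the threshold in each of 12 alternatives, with differences of -2.61 to -1.16 for Tgfa, -2.16 to -1.09 for Erbb3, -2.01 to -1.80 for Epgn, -1.08 to -0.92 for Hbegf and -0.95 to -0.66 for Erbb2. The other comparisons had 0 members called in every alternative run. In poor minus well SCC, uncalled differences changed sign. Without the 9 arrays of doubtful sex markers Tgfa was -0.44, Hbegf -0.44, Areg -0.37 and Epgn -0.33. Without SCC 24, a choice made after seeing the data, they were -0.022, -0.17, -0.12 and -0.070. Hbegf was -0.015 with the mean of probe sets, and Epgn -0.015 with sex and origin as covariates. Btc was 0.029 without the 4 near-identical arrays. Areg was -0.18 and Epgn -0.049 without the 3 arrays of largest Gapdh difference. Areg in spindle minus poor SCC was 0.052 with sex and origin as covariates. The cause of these shifts was not tested. In 4 of the 18 correlated pairs the adjusted p rose past the threshold without the doubtful arrays. Every tumor with the mouse as a random effect could not be run for spindle minus poor SCC. No paired analysis was possible because replicate numbers follow accession order and tie no mice across groups.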
